A study of Mus musculus with 4 samples.

Results

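The forkhead (Fox) transcription factor genes were taken from the gene count table as its protein-coding rows whose symbol begins with Fox, a letter from a to s and a digit, which gave 43 genes of 37620 and a member in each of 19 subfamilies, A to S. Gene names, positions and types came from the mouse annotation of the NCBIM37 (mm9) build, in which Foxl1 is typed as a pseudogene and Foxl2os as a non-coding RNA, so neither was a member. Forkhead proteins share the winged-helix DNA-binding domain, and some can bind their sites in closed chromatin. In the embryo they specify germ layers and organs, and in dividing and starved cells they control mitotic and metabolic genes. In mouse embryonic stem cells (mESCs) the family is best known for FOXD3, a regulator of the pluripotent state, for FOXO1, which activates pluripotency genes, and for FOXH1, the DNA-binding partner of SMAD proteins in Nodal signalling.

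The RNA-seq covered WT_CTCF and MUT_CTCF mESCs, 2 libraries per line, to ask how gene expression differs when the chromatin protein CTCF cannot carry the sugar O-GlcNAc at T668. Both lines descend from mESCs whose endogenous CTCF carries an auxin-inducible degron, in which the tagged protein was degraded by auxin while a vector supplied wild-type CTCF (WT_CTCF) or CTCF mutated at T668 (MUT_CTCF), and both grew on gelatin in medium with serum and LIF. Each line was a clone chosen for exogenous CTCF near the endogenous level, so the mutation and any other difference between the 2 clones cannot be told apart, and the methods call the libraries of a line biological replicates without saying whether they came from separate cultures, so the p-values measure the spread between these libraries only. The methods give a time of auxin treatment for these lines and do not repeat it for the RNA-seq.

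Total counts lay between 40524694 and 40977464 per library and edgeR's TMM scaling factors between 0.994 and 1.01. The 8 mESC markers were high in all 4 libraries, with summed levels from 6683 to 6726 CPM (counts scaled by library size and TMM factor). Of these 8 genes, Sox2 was higher and Dppa5a lower in MUT_CTCF mESCs at an edgeR adjusted p under 0.05. Summed CPM over 8 fibroblast markers, with Lum at 0, was 21.8 to 22.3 in WT_CTCF and 23.7 to 25.3 in MUT_CTCF mESCs. Over 6 primitive endoderm markers it was 15.0 to 15.5 against 16.2 to 20.7. Only 4 of the fibroblast and 5 of the primitive endoderm markers were tested, and 0 passed. By fold change, 2 of those 4 and 4 of those 5 were higher in MUT_CTCF mESCs. Of the 6 trophectoderm markers, all tested, Cdx2 passed as lower, and 1 of the 6 was higher in MUT_CTCF mESCs by fold change. Of the 5 neural markers found only 3 were tested. Tubb3 passed as lower, while 2 of those 3 were higher by fold change. None of the 6 mesendoderm markers passed, and 2 of them were higher by fold change.

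The forkhead genes together took 35769 to 35958 reads in every library, 878 and 879 CPM in WT_CTCF and 869 and 885 CPM in MUT_CTCF mESCs. Of the 43 genes, 32 had enough reads for edgeR's filter (about 10 reads in 2 libraries) and were tested, 6 had reads but too few, and 5 had no read in any library. A count of 0 allows up to 3 counts, at most 0.0740 CPM in any library by library size without the TMM factor. This covers counting error only. Levels are given here as RPKM, reads per length of exon scaled by library size and TMM factor, so that genes of different length can be compared. By level, 18 members reached 1 RPKM in WT_CTCF or MUT_CTCF mESCs.

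**Figure D1:**
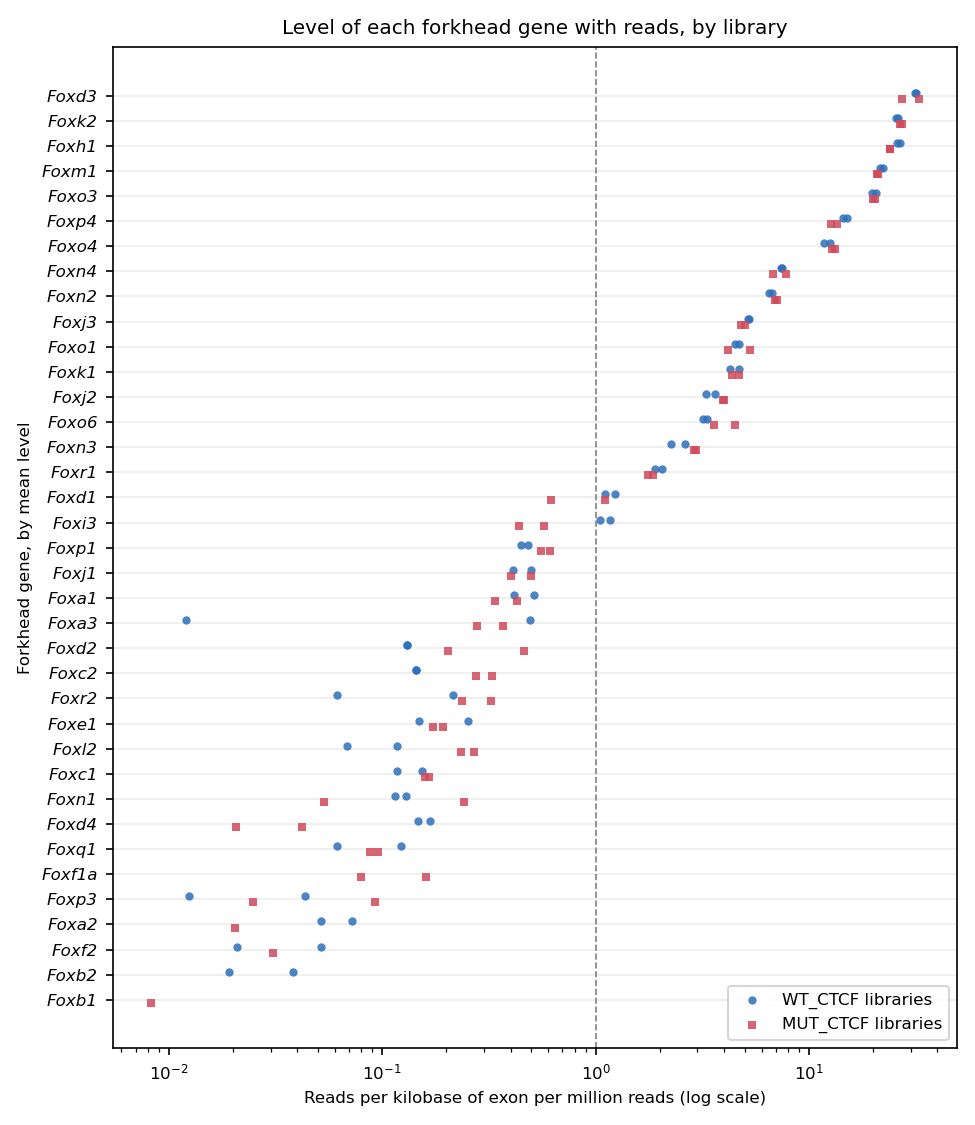
Level of 37 forkhead genes with reads, in RPKM on a log scale, with circles for the 2 WT_CTCF and squares for the 2 MUT_CTCF libraries and a dashed line at 1. Libraries with no read are not drawn (both WT_CTCF libraries of Foxf1a, for example), and the levels run from 30.8 for Foxd3 down to single reads for Foxb1.

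Foxd3 had the highest level of the family, 31.7 and 31.5 RPKM in WT_CTCF and 27.3 and 32.7 RPKM in MUT_CTCF mESCs, a mean of 30.8 that 14% of tested genes exceeded. It was followed by Foxk2 at a mean of 26.5 RPKM, Foxh1 at 25.2, Foxm1 at 21.4 and Foxo3 at 20.2, and these 5 genes made 63.2% of the summed level of the family. Foxp4 (13.9 RPKM), Foxo4 (12.6) and Foxn4 (7.39) brought that share to 80.5%. Then came Foxn2 (6.81), Foxj3 (5.05), Foxo1 (4.66), Foxk1 (4.52), Foxj2 (3.72), Foxo6 (3.65), Foxn3 (2.69), Foxr1 (1.89) and Foxd1 (1.02). Of the 31 pairs of neighbours in this order of tested genes, 10 were separated in all 4 libraries, each of them above or at the step from Foxr1 to Foxd1, and the other 21 overlapped. Foxk2 overlapped with Foxh1, Foxp4 with Foxo4, Foxn4 with Foxn2, Foxj3 with Foxo1, Foxo1 with Foxk1 and Foxj2 with Foxo6, so the order within those pairs is not larger than the spread between libraries.

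By subfamily, the O genes held 21.0% of the summed forkhead level, D 16.4% (nearly all Foxd3), K 15.8%, H 12.8%, M 10.9%, N 8.67%, P 7.39% and J 4.70%. The R genes held 1.07% and every other subfamily at most 0.412%, among them A, C and F, the factors of endoderm, mesoderm and gut mesenchyme. The shares of WT_CTCF and MUT_CTCF mESCs were close, 20.3% and 21.6% for the O genes, the largest share in both. Of the 11 members that lie on 1 exon, as Foxd3 does, 9 were tested, and of the 32 with several exons 23 were.

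Promoter sequence was compared for the 28 members that had one in RefSeq's GRCm38.p6 table, taking the 250 bases before each of their 33 annotated starts. The forkhead promoters held a median of 16 CG pairs, from 3 to 48, where all 32851 promoters of the table held a median of 6, and their GC content was 62.0% against 52.4%. The 11 promoters of members with a mean of at least 1 RPKM over the 4 libraries held a median of 21 CG pairs and the 22 of members under it (Foxi3 included) 11.5, a description over genes with no test. The core of the CTCF motif, searched on both strands, stood in 3 of the 33 promoters, those of Foxc1, Foxd1 and Foxj2. That is 9.09% against 2.07% of all. The promoters compared were not matched for GC content, here or for the other letters below. The forkhead core GTAAACA, on both strands, stood in 1, that of Foxa1, 3.03% against 3.17%, and TATAAA, on the gene's strand only, stood in those of Foxa3 and Foxp3, 6.06% against 7.59%. Printed here are the 250 bases of RefSeq sequence before the start of Foxd3, the member with the highest level, and of Foxd2 and Foxl2, both on 1 exon and the 2 members whose counts were over 2-fold higher in MUT_CTCF mESCs at an unadjusted p under 0.05, 5' to 3' on the gene's strand with CG pairs in capitals. Each was searched only on the chromosome and strand of its gene in NCBIM37 and matched exactly once there. The places were chr4:99322740-99322989 (plus strand, 21 CG pairs, 65.6% GC) for Foxd3, chr4:114581504-114581753 (minus strand, 16 CG pairs, 64.4% GC) for Foxd2 and chr9:98855776-98856025 (plus strand, 22 CG pairs, 70.8% GC) for Foxl2.
Foxd3: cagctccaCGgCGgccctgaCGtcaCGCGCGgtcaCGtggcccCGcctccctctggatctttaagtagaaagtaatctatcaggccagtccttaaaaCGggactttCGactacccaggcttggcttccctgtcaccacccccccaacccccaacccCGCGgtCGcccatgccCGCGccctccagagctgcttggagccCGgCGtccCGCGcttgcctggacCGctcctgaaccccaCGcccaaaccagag
Foxd2: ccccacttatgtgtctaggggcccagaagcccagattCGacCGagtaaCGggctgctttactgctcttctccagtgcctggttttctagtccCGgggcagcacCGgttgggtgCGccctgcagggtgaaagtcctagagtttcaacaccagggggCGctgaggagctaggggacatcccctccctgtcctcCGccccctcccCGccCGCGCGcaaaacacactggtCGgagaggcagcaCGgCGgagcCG
Foxl2: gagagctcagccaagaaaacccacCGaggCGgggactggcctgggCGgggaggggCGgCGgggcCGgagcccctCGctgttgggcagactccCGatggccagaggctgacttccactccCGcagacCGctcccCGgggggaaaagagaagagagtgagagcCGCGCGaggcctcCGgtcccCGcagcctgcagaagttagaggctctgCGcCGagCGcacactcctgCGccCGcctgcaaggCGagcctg
Foxd2 carried AGGGGGCGC, 9 letters of a CTCF core picked after the sequence had been seen, ending 92 bases before its start. On both strands these letters stood in 6.06% of the forkhead promoters, those of Foxd2 and Foxa3, and in 1.11% of all. Foxd2 is in that share by the choice of the letters, so the share gives no support of its own. The core of the CTCF motif searched above was not found in the Foxd2 promoter. A match is a description of the letters, and whether CTCF was bound there was not tested.

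The MUT_CTCF to WT_CTCF comparison asked which forkhead genes differ when CTCF cannot carry O-GlcNAc at T668. None of the 32 tested members passed an adjusted p under 0.05 by edgeR's quasi-likelihood test, where 1.56% of the 16264 tested genes were higher and 1.61% lower (253 and 262 genes, or 260 and 152 when scaled by library size only). edgeR's exact test also called 0 of the 32, and DESeq2's Wald test called 0 of the 13 members to which it gave an adjusted p, leaving it unset for the other 19, Foxd2, Foxl2, Foxi3 and Foxd4 among them. At an unadjusted p under 0.05, 8 members (25%) passed against 15.3% of all tested genes. At the criterion of the study's methods, more than a 2-fold difference at p under 0.05 before adjustment, 2 members were higher (Foxd2 and Foxl2, 6.25%) where 0.947% of all genes were, and 2 were lower (Foxi3 and Foxd4, 6.25%) where 0.357% were. Foxl2 and Foxd4 passed the filter on reads only through the line in which they were higher, so these shares give no support of their own. The 26 members with at least 10 reads in every library leave out both. Among these 26, 2 were higher (Foxc2 and Foxd2) and 1 lower (Foxi3). No share over all genes is given for that filter, so this count cannot be judged against one. Foxd2, Foxl2, Foxi3 and Foxd4 had at most 61 reads in any library, and the number of members at this criterion was 2 by DESeq2, 1 with MUT_CTCF replicate 1 left out, and 2 when MUT_CTCF replicate 2 or WT_CTCF replicate 2 was left out.

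The direction was divided across the family. The log2 fold change of MUT_CTCF over WT_CTCF was above 0 for 17 members and below 0 for 15, with a median of 0.014 beside 0.0034 and 50.8% above 0 for all tested genes. Both MUT_CTCF libraries exceeded both WT_CTCF ones in 12 members (37.5%) and lay under them in 7 (21.9%), against 22.3% and 22.4% of all tested genes. Foxl2, Foxr2 and Foxd4 are among them and passed the filter only through the line in which they were higher, so these shares give no support. Among the 26 members with at least 10 reads in every library, 10 were higher and 6 lower in this way. No share over all genes is given for that filter. With 2 libraries against 2, an exact two-sided permutation test cannot give a p below 0.333, so every p rests on the spread edgeR estimated across genes. How far a member could be measured followed its depth: the 16 members with a mean of 200 or more normalized counts had standard errors from 0.040 to 0.16 and no log2 fold change beyond 0.33 in size, and the 16 below had standard errors from 0.21 to 0.93. The median size of the log2 fold change was 0.091 in the deep members and 0.32 in the shallow ones, beside 0.071 and 0.30 for all genes of the same depth. In bulk RNA, fewer cells that express a gene and less RNA per cell cannot be told apart.

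**Figure D2:**
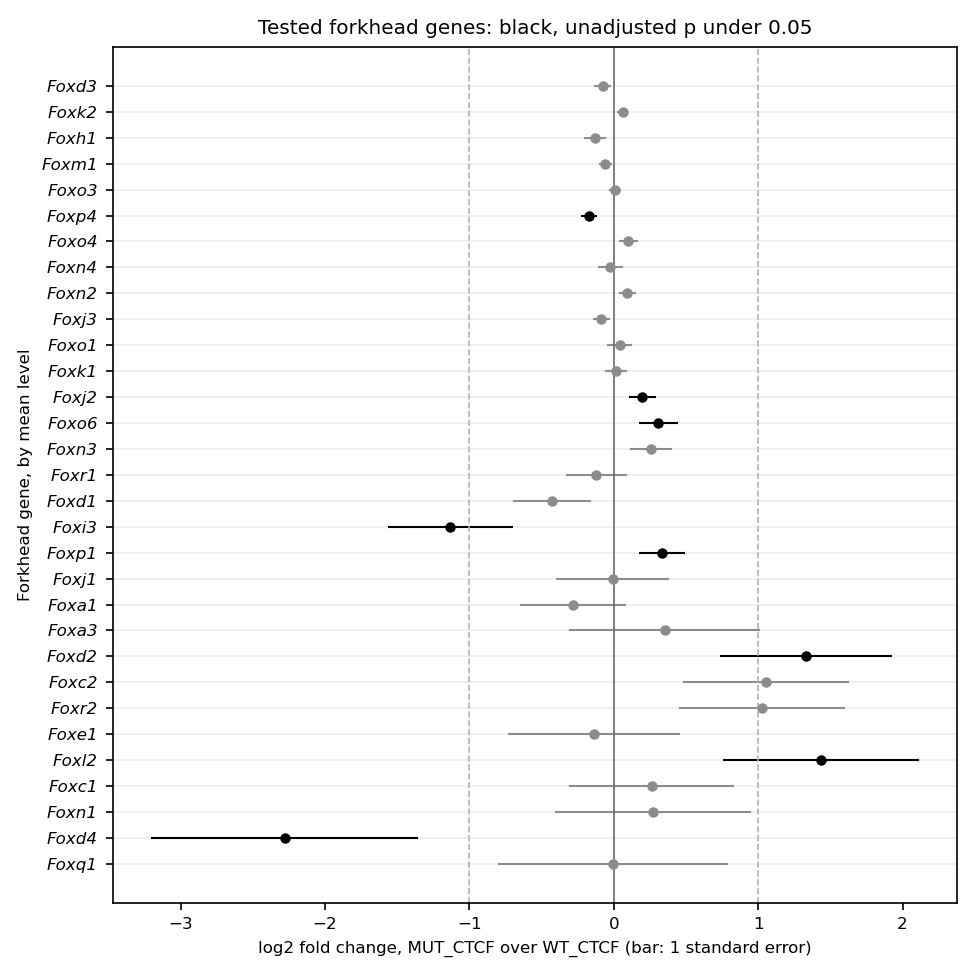
Log2 fold change of MUT_CTCF over WT_CTCF (horizontal axis, bars of 1 standard error) for 31 tested forkhead genes in order of mean level, in black where the unadjusted p is under 0.05, with dashed lines at a 2-fold change. The genes at the top lie close to 0 with short bars, and all genes beyond the dashed lines lie in the lower part with long bars.

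**Figure D3:**
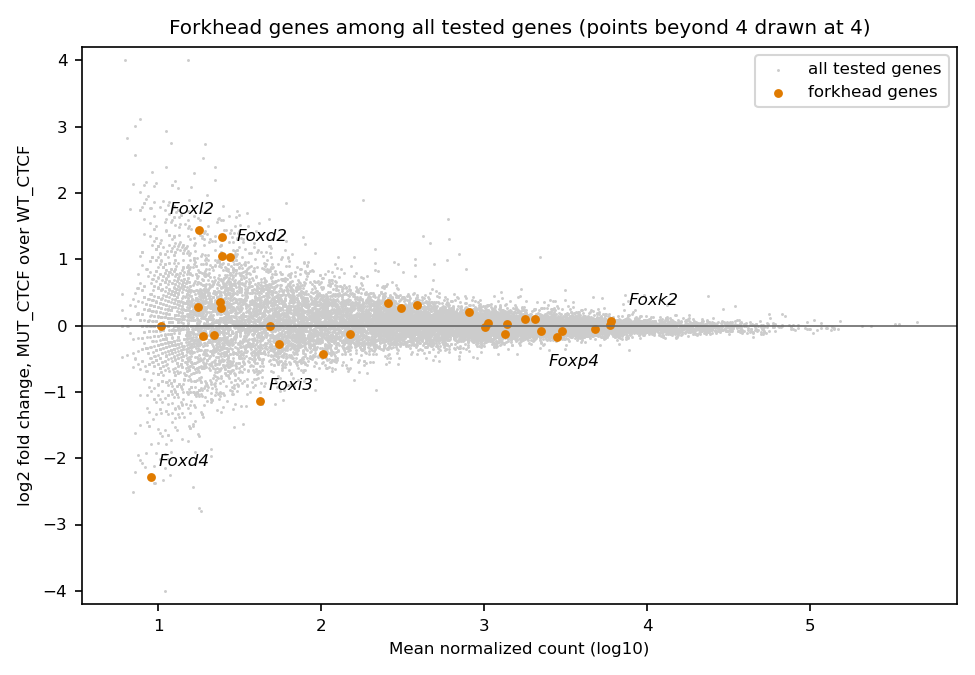
Log2 fold change (vertical axis) against the mean normalized count on a log10 scale (horizontal axis) for all 16264 tested genes in grey and the 32 tested forkhead genes in orange. The 4 members named at the left, Foxl2, Foxd2, Foxi3 and Foxd4, are among the shallow genes, where grey points reach as far from 0.

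Foxd3 (chromosome 4, 99322990 to 99325362), which maintains pluripotent cells and neural crest, had 3069 and 3051 normalized counts (counts scaled to the mean library) in WT_CTCF and 2645 and 3164 in MUT_CTCF mESCs. The MUT_CTCF libraries lay on either side of the WT_CTCF ones. Its log2 fold change was -0.075 (standard error, SE, 0.058, edgeR adjusted p = 0.600), with a 95% interval from -0.19 to 0.038, and it turned to 0.048 without MUT_CTCF replicate 1.

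Foxh1 (chromosome 15, 76498714 to 76500378), which brings SMAD2 to DNA when Nodal signals, had 1428 and 1372 normalized counts in WT_CTCF and 1283 and 1278 in MUT_CTCF mESCs. Both MUT_CTCF libraries were lower, but the difference did not pass: the log2 fold change was -0.13 (SE 0.074, edgeR adjusted p = 0.425). Of 20 partners and targets of FOXH1, listed from textbook knowledge, 18 were tested. None rose and 1 fell, with 8 above 0 and a median log2 fold change of -0.014. Beside this list and those below, 1.56% of all tested genes rose and 1.61% fell at an edgeR adjusted p under 0.05. Of all tested genes 50.8% were above 0, with a median of 0.0034. The gene that fell was Nodal itself, the ligand, with 5987 and 6062 normalized counts in WT_CTCF and 5106 and 5585 in MUT_CTCF mESCs. Its log2 fold change was -0.17 (SE 0.042, edgeR adjusted p = 0.0109). Cer1, a secreted Nodal antagonist, had no read.

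Foxm1 (chromosome 6, 128312985 to 128325911), the activator of genes of mitosis, had 4829 and 4987 normalized counts in WT_CTCF and 4702 and 4728 in MUT_CTCF mESCs. The MUT_CTCF libraries were the lower ones, by a log2 fold change of -0.058 (SE 0.044, edgeR adjusted p = 0.595) whose 95% interval ran from -0.14 to 0.028. All 24 genes listed as its targets were tested, of which 0 rose and 2 fell, with 7 above 0 and a median of -0.040. Of all 10325 tested genes with 200 or more normalized counts, 4930 were above 0, with a median of -0.0064. Cdc20, which activates the anaphase-promoting complex, fell by 0.13 on the log2 scale (SE 0.030, edgeR adjusted p = 0.00703). Cks1b, a subunit of cyclin-dependent kinase complexes, fell by 0.17 (SE 0.047, edgeR adjusted p = 0.0332).

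The FOXO factors are kept in the cytoplasm when insulin and growth factors activate AKT and enter the nucleus when that signal is low. Foxo3 (chromosome 10, 41901647 to 41996561), which activates genes of stress resistance and cell cycle arrest, had 6069 and 5782 normalized counts in WT_CTCF and 6030 and 5903 in MUT_CTCF mESCs, overlapping, with a log2 fold change of 0.010 (SE 0.041, edgeR adjusted p = 0.947, 95% interval -0.069 to 0.090). Foxo1 (chromosome 3, 52072259 to 52154031), which activates pluripotency genes in ES cells, had 1019 and 1066 against 1201 and 941.5. The MUT_CTCF libraries of Foxo1 enclosed the WT_CTCF ones, and its log2 fold change was 0.041 (SE 0.089, edgeR adjusted p = 0.896). Foxo4 (chromosome X, 98449867 to 98456212), a close relative with the same targets, had 1676 and 1784 against 1886 and 1821. Both its MUT_CTCF libraries were higher, and the log2 fold change was 0.10 (SE 0.066, edgeR adjusted p = 0.515). Foxo6 (chromosome 4, 119939684 to 119959954), the FOXO factor of the brain, was the shallowest of the 4 with 354 and 342 against 384 and 478, that is 348 ± 8.32 and 431 ± 66.9 (SD, n = 2). Both MUT_CTCF libraries were higher, and the log2 fold change of 0.31 (SE 0.133, 95% interval 0.048 to 0.57) had an unadjusted p of 0.0241 and an edgeR adjusted p of 0.241.

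Around the FOXO factors, 23 genes of their input and handling (receptors, PI3K and AKT kinases, 14-3-3 proteins, export) were all tested, with 14 above 0, a median of 0.0075, none that rose and 1 that fell. That was Akt2, an AKT kinase, which fell by 0.12 on the log2 scale (SE 0.035, edgeR adjusted p = 0.0447). Of 22 genes listed as FOXO targets 17 were tested, with 8 above 0 and a median of -0.017. Bnip3, a mitophagy receptor, rose from 296 and 296 to 947 and 852 normalized counts, a log2 fold change of 1.60 (SE 0.113, edgeR adjusted p = 1.71e-16). Cdkn1a, the p21 inhibitor of cyclin-dependent kinases, fell by 0.11 (SE 0.033, edgeR adjusted p = 0.0397), and Igfbp1 had no read.

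The FOXK factors are repressors found in most cells, bound to SIN3 and to the BAP1 deubiquitinase complex. Foxk2 (chromosome 11, 121116808 to 121171210) had 5858 and 5959 normalized counts in WT_CTCF and 6104 and 6228 in MUT_CTCF mESCs. It was higher in both MUT_CTCF libraries by a log2 fold change of 0.061 (SE 0.040, edgeR adjusted p = 0.502), with a 95% interval from -0.017 to 0.14. Foxk1 (chromosome 5, 142877451 to 142937968), which acts with Foxk2 to repress autophagy genes, had 1426 and 1301 against 1327 and 1433, overlapping, with a log2 fold change of 0.017 (SE 0.075, edgeR adjusted p = 0.951). All 14 listed partners of these proteins were tested and 0 passed by edgeR's adjusted p, with 5 above 0 and a median of -0.0093. The smallest p was that of Bap1 itself, with a log2 fold change of -0.086 (SE 0.037, edgeR adjusted p = 0.241).

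Foxp4 (chromosome 17, 48004082 to 48061594), a repressor active in lung and T cell development, had the smallest p of the family. It had 2916 and 3025 normalized counts in WT_CTCF and 2544 and 2728 in MUT_CTCF mESCs, that is 2970 ± 77.4 and 2636 ± 130 (SD, n = 2). The groups did not overlap, and the log2 fold change was -0.17 (SE 0.055, 95% interval -0.28 to -0.065), at an unadjusted p of 0.00269 and an edgeR adjusted p of 0.0706. Foxp1 (chromosome 6, 98875332 to 99216526), for which a splice form of pluripotent cells is known that gene counts cannot tell apart, went the other way. Its counts of 234 and 217 in WT_CTCF and 272 and 298 in MUT_CTCF mESCs (226 ± 11.9 and 285 ± 18.9, SD, n = 2) did not overlap. The log2 fold change was 0.33 (SE 0.159, 95% interval 0.022 to 0.65), at an unadjusted p of 0.0402 and an edgeR adjusted p of 0.304. Per length, Foxp1 stood at 0.525 RPKM and Foxp4 at 13.9 RPKM.

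Among the J, N and R genes, Foxj2 (chromosome 6, 122769932 to 122795384), a widely expressed activator, had 780 and 714 normalized counts in WT_CTCF and 852 and 863 in MUT_CTCF mESCs, that is 747 ± 47.1 and 857 ± 8.17 (SD, n = 2). It was higher in each MUT_CTCF library, and the log2 fold change was 0.20 (SE 0.094, 95% interval 0.015 to 0.38), at an unadjusted p of 0.0388 and an edgeR adjusted p of 0.300. Foxj3, a regulator of muscle and sperm genes, had a log2 fold change of -0.086 with both MUT_CTCF libraries lower. Foxj1, the switch for motile cilia, had 44 and 53 reads against 54 and 43, overlapping, with a log2 fold change of -0.0064 (0.0060 when scaled by library size only). Of 22 regulators and targets listed for FOXJ1, 16 were tested and 0 passed by edgeR's adjusted p, with 10 above 0 and a median of 0.057. The smallest p was that of Dnaic2, an intermediate chain of ciliary dynein, with 325 and 331 against 429 and 440 normalized counts and a log2 fold change of 0.41 (SE 0.131, edgeR adjusted p = 0.0751).

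Foxn4 (chromosome 5, 114704173 to 114723816), a factor of retinal and spinal interneurons, was among the 8 members of highest level with 1025 and 1023 normalized counts in WT_CTCF and 938 and 1078 in MUT_CTCF mESCs. The MUT_CTCF libraries enclosed the WT_CTCF ones and the log2 fold change was -0.023 (SE 0.086, edgeR adjusted p = 0.944). Foxn2 and the checkpoint repressor Foxn3 were higher in both MUT_CTCF libraries, at log2 fold changes of 0.095 and 0.26 and edgeR adjusted p-values of 0.502 and 0.414. Foxr1, a germ cell factor, had 162 and 149 reads against 141 and 146 and a log2 fold change of -0.12. Foxr2, on the X chromosome, had 28 and 8 reads against 43 and 31 and a log2 fold change of 1.03 (SE 0.574, edgeR adjusted p = 0.408). It came to 0.39 at its lowest and 2.18 at its highest when 1 library was left out.

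In the shallow members with an unadjusted p under 0.05, the values moved in both directions. Foxi3 (chromosome 6, 70906525 to 70911060), a factor of the ear placode and of ectodermal organs, had 55 and 61 reads in WT_CTCF and 23 and 30 in MUT_CTCF mESCs, that is 58.1 ± 4.28 and 26.5 ± 5.19 normalized counts (SD, n = 2). The groups did not overlap, and the log2 fold change was -1.13 (SE 0.434, 95% interval -1.98 to -0.28), at an unadjusted p of 0.0116 and an edgeR adjusted p of 0.161. In level, Foxi3 passed 1 RPKM only in WT_CTCF mESCs, at 1.11 against 0.506 RPKM. Foxd4 (chromosome 19, 24973455 to 24975799), a factor of the early neural plate, had 16 and 14 reads against 2 and 4. Its groups did not overlap, and the log2 fold change was -2.28 (SE 0.925, 95% interval -4.09 to -0.47), at an unadjusted p of 0.0169 and an edgeR adjusted p of 0.197. Foxd4 passed the filter only through its WT_CTCF libraries. Foxd1, the factor of kidney stroma, had 111 and 123 reads against 63 and 111, with a log2 fold change of -0.43 (SE 0.27, edgeR adjusted p = 0.482), and came to -0.072 without MUT_CTCF replicate 1.

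Foxd2 (chromosome 4, 114578885 to 114581503), a factor of paraxial mesoderm and kidney whose promoter is printed above, had 14 and 14 reads in WT_CTCF and 22 and 49 in MUT_CTCF mESCs. Both MUT_CTCF libraries were higher, and they differed from each other by more than the lower of them differed from WT_CTCF. The log2 fold change was 1.33 (SE 0.594, 95% interval 0.17 to 2.50), at an unadjusted p of 0.0290 and an edgeR adjusted p of 0.262, and 0.63 without MUT_CTCF replicate 2. Foxl2 (chromosome 9, 98856026 to 98858545), the factor that maintains the ovary, had 12 and 7 reads against 28 and 24. The groups did not overlap, with a log2 fold change of 1.43 (SE 0.677, 95% interval 0.11 to 2.76), an unadjusted p of 0.0385 and an edgeR adjusted p of 0.299. Foxc2 (chromosome 8, 123640071 to 123642792), a factor of mesoderm and lymphatic vessels, had 16 and 16 reads against 31 and 36 and a log2 fold change of 1.06, at an unadjusted p of 0.0726 and an edgeR adjusted p of 0.393. Its relative Foxc1 had 19 and 25 reads against 26 and 27, with a log2 fold change of 0.26 (SE 0.571, edgeR adjusted p = 0.896).

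**Figure D4:**
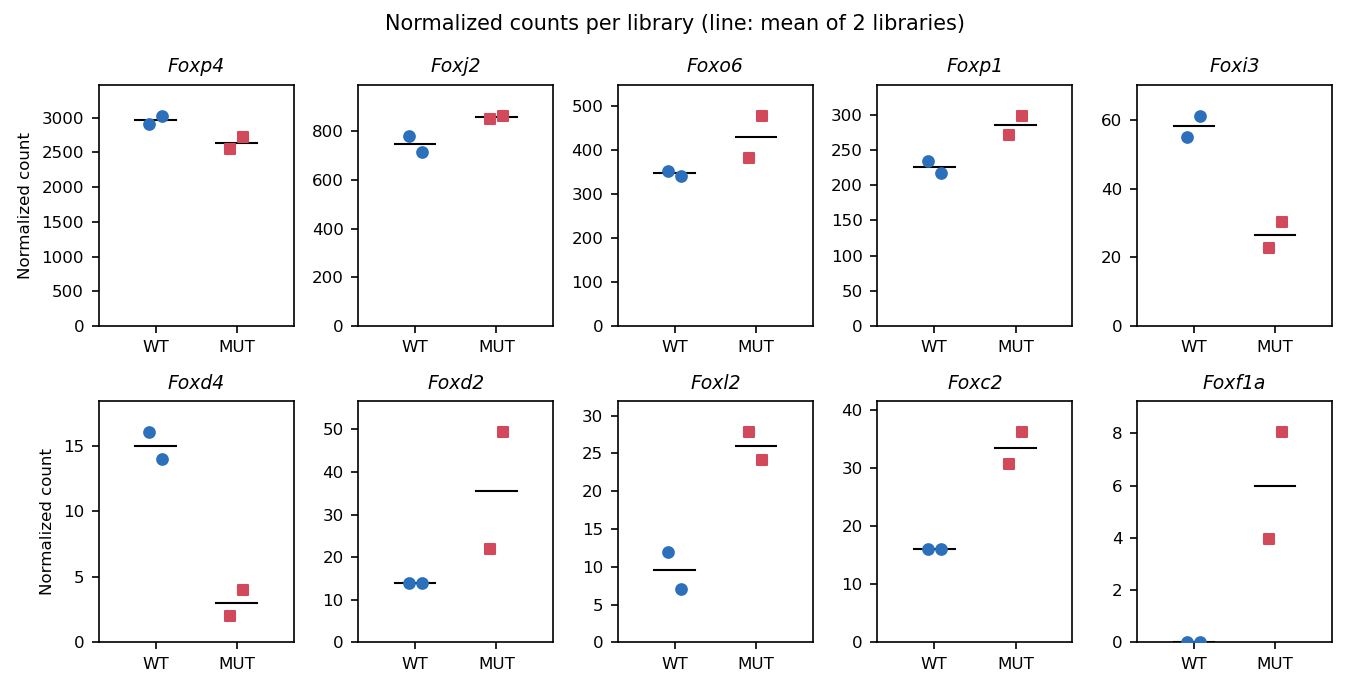
Normalized counts per library (vertical axes from 0, a scale of its own in each panel) for the 8 forkhead genes with an unadjusted p under 0.05, Foxc2 and Foxf1a, with circles for WT_CTCF and squares for MUT_CTCF libraries and a line at the mean of 2. The groups are separate in each panel, by little against the mean in Foxp4 and Foxj2 and at few reads in Foxd4, Foxl2 and Foxf1a.

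The FOXA genes, pioneer factors of endoderm and liver, were near the bottom of the range. Foxa1 had 67 and 54 reads in WT_CTCF and 56 and 44 in MUT_CTCF mESCs, with a log2 fold change of -0.28 (SE 0.366, edgeR adjusted p = 0.801). Foxa3 had 1 and 41 reads against 31 and 23. Its WT_CTCF libraries enclosed the MUT_CTCF ones, and its log2 fold change of 0.35 (edgeR adjusted p = 0.873) became 4.59 (edgeR adjusted p = 0.0329) without WT_CTCF replicate 2 and -0.61 without WT_CTCF replicate 1. Foxa2 (chromosome 2, 147868613 to 147872705), the marker of definitive endoderm and midline, had 5 and 7 reads against 2 and 0 and was too low to test. Of 12 partners and endoderm genes listed with it 9 were tested and 0 passed by edgeR's adjusted p. Of these 9, 7 were above 0, with a median of 0.20. Of all 5939 tested genes under 200 normalized counts, 3337 were above 0, with a median of 0.067. The smallest p was that of Gata6, an endoderm factor that is also among the primitive endoderm markers, with 57 and 50 reads against 99 and 108, a log2 fold change of 0.95 (SE 0.303, edgeR adjusted p = 0.0733).

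Other tested members had few reads and small differences. Foxe1, the thyroid factor, had 29 and 17 reads in WT_CTCF and 20 and 22 in MUT_CTCF mESCs, with a log2 fold change of -0.14. Foxn1, the factor of thymus epithelium, had 17 and 15 against 32 and 7, with a log2 fold change of 0.27 that was -1.17 without MUT_CTCF replicate 1. In Foxq1, a factor of stomach lining and hair, 7 and 14 reads stood against 11 and 10, and the log2 fold change was -0.0059 (0.0060 when scaled by library size only). The groups of these 3 genes overlapped, their standard errors lay between 0.597 and 0.796, and their edgeR adjusted p-values between 0.908 and 0.998.

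Besides Foxa2, 5 members had reads but were too low to test. Foxf1a (chromosome 8, 123608286 to 123610851) is a factor of lung and gut mesenchyme. It had no read in WT_CTCF and 4 and 8 in MUT_CTCF mESCs. The mean of its MUT_CTCF normalized counts was 2.00 times a floor of 3 counts per library. That floor allows for counting error in WT_CTCF only. Without the filter on reads its edgeR adjusted p was 0.499. Foxp3, the factor of regulatory T cells, had 7 and 2 reads against 15 and 4. Foxf2, the palate and gut relative of Foxf1a, had 5 and 2 against 3 and 0. Foxb2 had 2 and 1 against 0 and 0, and Foxb1, a factor of the hypothalamus, had a single read in MUT_CTCF replicate 2. No read was counted for Foxe3 (lens), Foxi1 (kidney and ear ion transport), Foxi2, Foxp2 (brain and lung) and Foxs1.

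Exon positions were shared with another gene in 11 members, and the sources used here do not name the strand setting of the counting, so reads of such stretches can be lost or wrongly given. For the tested members reported here, the shared stretch was 41.6% of the exons of Foxq1, 12.1% of Foxo1 and at most 3.8% of Foxd3, Foxe1, Foxj2, Foxk2, Foxm1 and Foxp1. Among the genes that overlap these tested members, only Narf, which shares 26 bases with Foxk2, had many reads of its own. They were 836 and 964 in WT_CTCF and 985 and 881 in MUT_CTCF mESCs. Foxp3, too low to test, shares 373 bases (9.4% of its exons) with Ppp1r3f on the opposite strand. Ppp1r3f had 201 and 210 reads against 175 and 217. Foxp3 also shares 267 bases (6.8%) with 4930524L23Rik on the same strand, which had 28 and 19 reads against 33 and 25.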

How the data were processed

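RNA-seq counts of 2 WT_CTCF and 2 MUT_CTCF libraries were used. The authors used Trim Galore 0.4.4 for trimming, aligned the reads to mm9 with STAR, counted uniquely mapped reads per gene with HTSeq 0.9.1 and deposited these counts without normalization. Their own edgeR table of fold changes and p-values was not used. Symbols and positions came from the annotation of NCBIM37, which named 37205 of 37620 identifiers. Counts were filtered by filterByExpr (minimum 10), scaled by TMM and tested with glmQLFit and glmQLFTest of edgeR 4.0.16 (R 4.3.3) on condition only, for 16264 genes holding 99.96% of the counts, with Benjamini-Hochberg adjustment over all of them. The standard error is the log2 fold change divided by the root of F, and the 95% interval is 1.96 standard errors to each side. RPKM was computed from these counts and the merged exon length. The common dispersion was 0.0022. The fit was also run on simulated data, whose outcome is not given here, so no error rate is drawn from it. Replicates of a line differed by more than sampling noise, at a chi-square per degree of freedom of 3.61 in WT_CTCF and 4.27 in MUT_CTCF.

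The members and lists were chosen with earlier results of these data known. Full values were given for members with an unadjusted p under 0.05, for the 8 tested members of highest level, and for Foxd3, Foxh1, Foxo1, Foxo3, Foxp1, Foxm1, Foxa2, Foxk1 and Foxk2. The others were given by level or counts and fold change. Of each related list the genes that passed, or the one with the smallest p, were named. Alternatives were DESeq2 1.42.0 (Wald test, and its size factors in edgeR), edgeR's exact test, library size only, other filters and fold limits, a block for the replicate number, and leaving out each library, where the lone library of a line is assumed to vary like the other line. Protein sequences were not used here, and 1 tested member, which stays in all counts and medians, is not reported here by its values.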

Additional observations from a re-analysis of the deposited data

How the results depend on the processing

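No forkhead member passed an adjusted p under 0.05 under DESeq2's size factors, library size only, edgeR's exact test, either other filter or an added 2-fold limit. DESeq2's Wald test gave an adjusted p to 13 of the 32 members, of which 0 passed, and none to the other 19. With a replicate block 1 did, Foxp4, at a log2 fold change of -0.17 and an edgeR adjusted p of 0.0377. The labels do not say whether same-numbered libraries share a day or culture. Their deviations had a correlation of -0.019, which cannot settle it. The block raised the calls over all genes to 326 higher and 372 lower. With each library left out in turn the count was 0 to 1, the 1 being Foxa3 without WT_CTCF replicate 2. Foxp4 had adjusted p-values from 0.0377 to 0.362 over the settings with all libraries and from 0.162 to 0.506 with one left out.

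The 4 members with a p under 0.05 and a fold change above 2 became 2 by DESeq2 (0 higher, 2 lower), 6 of 38 without a filter, 3 of 26 (2 higher, 1 lower) with at least 10 reads in every library, and 1 to 3 with each library left out. No share over all genes is given beside these counts under the other settings. The median log2 fold change over the tested members, 0.014, was 0.026 to 0.074 with each library left out. Of the 32 tested members 18 reached 1 RPKM in either line and 26 had at least 10 reads in every library. The 19 members whose lines did not overlap were 19 by library size or DESeq2's size factors. With at least 10 reads in every library they were 16 of 26 (10 higher, 6 lower). No share over all genes is given for these 3 settings.

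Members with a log2 fold change near 0 or with few reads changed direction when a library was left out: Foxa3 (-0.61 to 4.59), Foxd3 (-0.21 to 0.048), Foxe1 (-0.47 to 0.30), Foxj1 (-0.17 to 0.14), Foxk1 (-0.048 to 0.085), Foxn1 (-1.17 to 0.98), Foxn4 (-0.13 to 0.074), Foxo1 (-0.15 to 0.20), Foxo3 (-0.024 to 0.046) and Foxq1 (-0.42 to 0.57). Foxj1 and Foxq1 also changed by library size only, both to 0.0060, and Foxq1 under the replicate block, to 0.043. Over all genes, the 253 higher and 262 lower calls were 129 and 184 by DESeq2, which left 9144 adjusted p-values unset, 26 and 3 without a filter, and between 6 and 0 and 142 and 102 with a library left out. The cause of these changes was not tested. Depth limits what can be seen in the 16 members under 200 normalized counts and in the 11 not tested.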

Other observations

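Some of the shallow members lie near each other, with other annotated genes between them. Foxf1a and Foxc2, both with more reads in each MUT_CTCF library, are 29.2 kb apart on chromosome 8 with Mthfsd between them. Mthfsd had 1144 and 1155 reads in WT_CTCF and 1130 and 1025 in MUT_CTCF mESCs (log2 fold change -0.099, SE 0.081, edgeR adjusted p = 0.632). Foxl1, on the other side of Foxc2, had no read. Foxd2 lies 16.2 kb from Foxe3, which had no read, with 9130206I24Rik between them. On chromosome 13, Foxq1, Foxf2 and Foxc1 follow each other at gaps of 64.8 and 175.2 kb, which hold 3 and 2 other annotated genes. None of Foxq1, Foxf2 and Foxc1 had more than 27 reads in a library.

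Foxl2os, a non-coding RNA on the opposite strand, starts 297 bases from the start of Foxl2 and runs away from it, so the printed Foxl2 promoter lies in the gap. Its reads were 17 and 4 in WT_CTCF and 8 and 21 in MUT_CTCF mESCs, overlapping, with a log2 fold change of 0.46 (SE 0.780, edgeR adjusted p = 0.858), where Foxl2 had 12 and 7 against 28 and 24.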
